A study of Homo sapiens with 22 samples.

Results

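Of the 22988 regions bound by the transcription factor E2F3 in control 22Rv1 cells, 595 overlapped an E2F3 region of 22Rv1 cells overexpressing the linker histone H1-10, and these retained regions are described here. A region was a member if it shared at least 1 bp with a row of the other E2F3 list, so membership rests on a measured value, and the E2F3 values that chose the regions are given as a description without a test. The members made up 2.59% of the Ctrl list, and their 605 partners made up 14.1% of the 4296 regions of the H1-10 overexpression (H1-10 OE) list. 22Rv1 is an established human prostate cancer cell line. Chromatin immunoprecipitation followed by sequencing (ChIP-seq) gave 1 list of peaks per library, and 8 of the 22 samples of the series were used.

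The E2F3 libraries came from H1-10 OE and from Ctrl cells. RNA polymerase II that carries phosphate on serine 5 of the C-terminal domain (Pol2S5p) was mapped in H1-10 OE and Ctrl cells, and in cells given an siRNA against E2F3 (siE2F3) or a control siRNA (siCtrl). In both siRNA lists the peak names also carry "H1FXOE", which points to cells overexpressing H1-10, while the labels of these samples are silent on it. H3K27me3, the histone mark of Polycomb silencing, was mapped in H1-10 OE and Ctrl cells. How H1-10 was expressed, and whether the cells were a clone or a pool, is not given in the sources used here. With 1 library in each group, differences could not be set against the spread between replicates, and p-values are not given. Intervals are 95% intervals (Wilson for a share, Newcombe for a difference of shares) and cover counting error only.

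E2F proteins pair with DP proteins, bind promoters of genes for DNA replication and entry into S phase, and are held in check by the retinoblastoma protein. E2F3 is a member that activates such genes and is often abundant in prostate cancer. Linker histones sit where DNA enters and leaves the nucleosome, and H1-10 (older name H1FX) is one of their variants. Phosphorylation of serine 5 marks polymerase that initiates transcription, so Pol2S5p is densest around active promoters. An hg19 gene annotation was not used here, so each region is given by its hg19 position.

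Retention followed the strength of a region in Ctrl at the top of the list. Ranked by the authors' -log10 p, all 10 of the strongest Ctrl regions were retained, as were 92 of the strongest 100, 156 of the strongest 200 and 266 of the strongest 500. The share was 64.0% (54.2 to 72.7%) at ranks 101 to 200, 36.7% (31.4 to 42.3%) at ranks 201 to 500 and 13.4% (10.7 to 16.7%) at ranks 501 to 1000. It was lowest, at 0.754% (0.576 to 0.987%), at ranks 4599 to 11494. In the weaker part of the list, ranks 11495 to 22988, it was 1.06% (0.890 to 1.27%). Divided by rank into 10 classes of equal size, the Ctrl list had 388 of the 595 members in its strongest class and 207 in the other 9. The H1-10 OE list showed no such gradient at its top: 4 of its strongest 10 regions, 25 of its strongest 100 and 149 of its strongest 500 were shared. Further down its share fell, from 28.6% of the strongest 1000 to 23.6% of the strongest 2000 and 14.1% of all 4296.

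**Figure D1:**
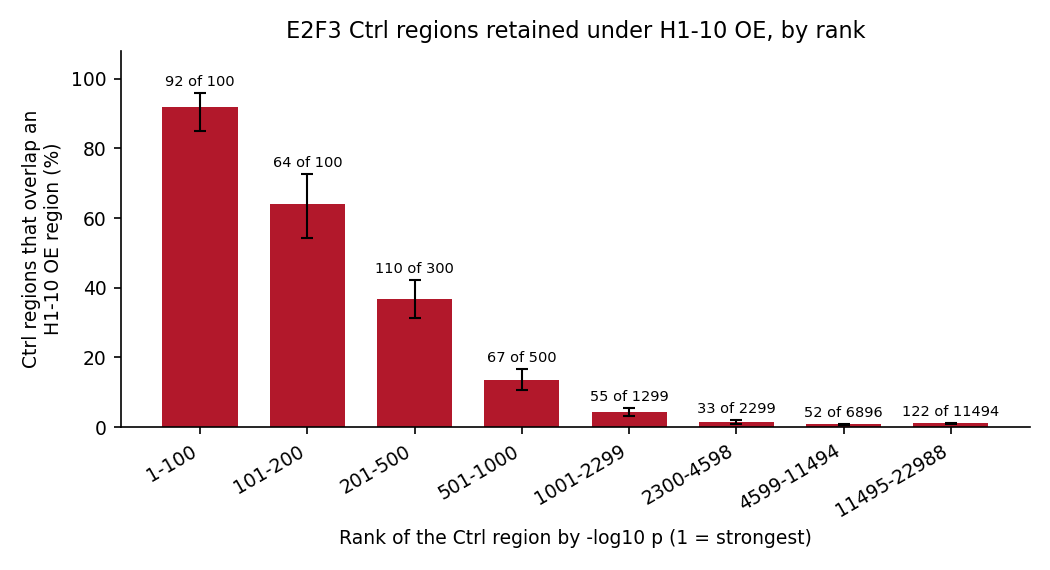
Share of E2F3 Ctrl regions that overlapped an H1-10 OE region (y axis, %) by rank of the Ctrl region (x axis, 1 is the strongest by -log10 p). Bars are shares, whiskers 95% Wilson intervals and labels counts; 92 of the first 100 regions were retained, against 55 of the 1299 at ranks 1001 to 2299.

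The 10 members with the highest -log10 q in Ctrl lay on 7 chromosomes, and each overlapped a region in all 4 Pol2S5p lists. So did 92.0% of the regions of the strongest Ctrl class that were not retained. Fold enrichments are the authors' values, and what they were computed against is not given in the sources used here. For the first, on chromosome 1 at 26797979 to 26800043, the fold was 7.75 in H1-10 OE and 148 in Ctrl. It ranked 144 of 4296 in H1-10 OE and 1 of 22988 in Ctrl. Its Pol2S5p fold was 34.1 in H1-10 OE, 35.4 in Ctrl, 30.3 in siE2F3 and 65.6 in siCtrl, in each case among the strongest 1000 regions of the list. Polymerase was thus found there in every library, also where E2F3 was targeted.

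For the second, on chromosome 6 at 52148960 to 52150129, the fold was 19.2 in H1-10 OE and 138 in Ctrl. It was high in rank in both lists, 11 in H1-10 OE and 2 in Ctrl. Chromosome 11 at 9594251 to 9595582 followed, where the fold was 6.44 in H1-10 OE and 140 in Ctrl. For chromosome 20 at 5099457 to 5100989 it was 8.08 in H1-10 OE and 135 in Ctrl. Next came chromosome 6 at 90539089 to 90539928, where the fold reached 10.7 in H1-10 OE and 132 in Ctrl, and chromosome 10 at 103911359 to 103912399, where it reached 10.3 in H1-10 OE and 124 in Ctrl. The others of the 10 were on chromosome 8 at 48872411 to 48874053 and 124408069 to 124409541, on chromosome 6 at 18263902 to 18265307 and on chromosome 7 at 148580392 to 148582323. In all 10 the H1-10 OE region lay wholly inside the Ctrl region, its summit at most 37 bp away. Widths ran from 432 to 787 bp in H1-10 OE and from 840 to 2065 bp in Ctrl.

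The 10 members whose partners had the highest -log10 q in H1-10 OE were of 2 kinds. Of these 10, 6 lay in all 4 Pol2S5p lists and were also strong in Ctrl, led by chromosome 6 at 27860589 to 27862727. That region had a fold of 31.8 in H1-10 OE, where it ranked 3, and of 115 in Ctrl, where it ranked 39. The regions on chromosome 4 at 174254691 to 174256885, chromosome 17 at 56083983 to 56085413 and chromosome 22 at 20104351 to 20105607 belonged to the same kind, with folds of 12.6, 14.7 and 10.3 in H1-10 OE and of 65.0, 93.5 and 119 in Ctrl. The other 4 overlapped Pol2S5p of H1-10 OE and not of Ctrl or siE2F3. Among them, chromosome 5 at 91977068 to 91977686 ranked 6 in H1-10 OE with a fold of 51.3, and 14413 in Ctrl with a fold of 8.05. Of the 4, it alone also lay in the siCtrl list of Pol2S5p, with a polymerase fold of 4.65.

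The remaining 3 of those 10 had low folds and high significance in both E2F3 lists. At chromosome 1, 121484411 to 121485435, the fold was 4.29 in H1-10 OE and 3.28 in Ctrl, with -log10 q of 144 and 92.7. Chromosome 7 at 61968721 to 61969737 and at 61970251 to 61970553 had folds of 3.89 and 5.05 in H1-10 OE and of 3.12 and 3.72 in Ctrl. With chromosome 10 at 42385083 to 42385345, these were the only 4 regions of the whole Ctrl list with a fold below 4 and a -log10 q above 20, and all 4 were retained. This limit was chosen after the values were seen. No list of places with high background was applied to any region. The part of such places in these 4 regions and in the other members was not tested.

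**Figure D2:**
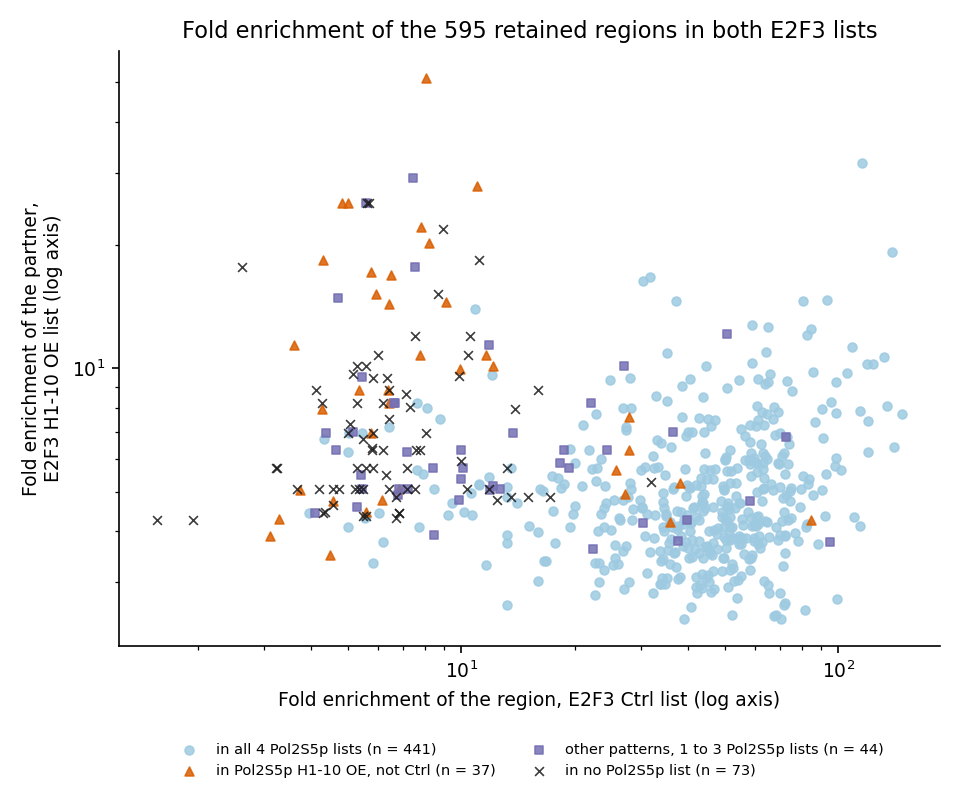
Fold enrichment of each of the 595 retained regions in the Ctrl list (x axis, log scale) and of its partner in the H1-10 OE list (y axis, log scale), with marker and colour by the Pol2S5p lists it overlapped. The 441 regions in all 4 Pol2S5p lists lay mostly at a Ctrl fold of 32.2 to 62.0 (quartiles), while the regions in no Pol2S5p list lay mostly at 5.27 to 7.75.

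Strength within the Ctrl list did not carry over to fold in H1-10 OE. Members in the strongest class of Ctrl had a median fold of 4.55 in H1-10 OE and 50.4 in Ctrl. Members in the weakest 4 classes had medians of 6.33 in H1-10 OE and 5.59 in Ctrl. By significance the order was the other way: partners had a median rank of 866.5 of 4296 for the strongest class and of 1797 for the weakest 4 classes. Over the 595 members, Spearman's rho between the lists was 0.43 for -log10 q and -0.17 for fold, as a description. These points share 2 libraries. Levels are not compared between lists, since read depth is unknown here.

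The retained regions were wide in Ctrl and their partners narrow. The median width was 382 bp for the 605 partners in H1-10 OE (quartiles 320 and 471) and 942 bp for the members in Ctrl (quartiles 621.5 and 1256.5). Regions found in one list only had median widths of 381 bp in H1-10 OE and 570 bp in Ctrl, so the median of the partners was close to that of the rest of their list, and that of the members was above it. A wider region meets the rule more easily, so the second difference is a description. The partner lay wholly inside the member in 456 of 595 cases (76.6%), and the member wholly inside the partner in 54. The median overlap was 359 bp. Taken for each member in turn, the overlap had a median of 100% of the width of the partner and of 41.2% of the width of the member.

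Width turned round with strength. In the weakest 4 classes, 74 of 104 members were narrower than their partner, with median widths of 461.5 bp in H1-10 OE and 328.5 bp in Ctrl. In the strongest class, 3 of 388 were narrower, with medians of 378 bp in H1-10 OE and 1095.5 bp in Ctrl. The other Ctrl regions of the strongest class had a median of 1035 bp.

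Most members, 585, had a single partner. Several partners fell within 10 members, and 5 H1-10 OE regions each spanned 2 members. The member with most partners, 6, was also the widest of the Ctrl list, at 13250 bp on chromosome 21 from 9828028 to 9841277. It had no Pol2S5p region in any of the 4 lists.

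The distance between summits was short in most members. Because members were chosen by overlap with regions of a median width of 382 bp, the rule itself limits this distance, and the values are a description. The summit is the peak start plus the deposited offset, and the partner with the longest overlap was used. The median distance between the H1-10 OE and Ctrl summits was 28 bp (interval 25 to 31 bp, quartiles 11 and 75.5 bp). The summits lay within 10 bp of each other in 144 members, within 50 bp in 400 (67.2%) and within 100 bp in 481 (80.8%). No side was favoured: the H1-10 OE summit lay at the higher coordinate in 293 members, at the lower in 293 and at the same base in 9. The H1-10 OE summit fell inside the member in 567 cases, and the Ctrl summit fell inside the partner in 551.

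Distances were shorter in strong regions. The median was 19 bp (16 to 23 bp) in the strongest class of Ctrl and 73 bp (52 to 99 bp) in the other classes. Within 50 bp lay 81.2% of the first set and 41.1% of the second. Members in all 4 Pol2S5p lists had a median of 23 bp (20 to 26 bp) and those in none had 76 bp (51 to 101 bp). Summits of weaker peaks rest on fewer reads, and how far that sets the distance was not tested.

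**Figure D3:**
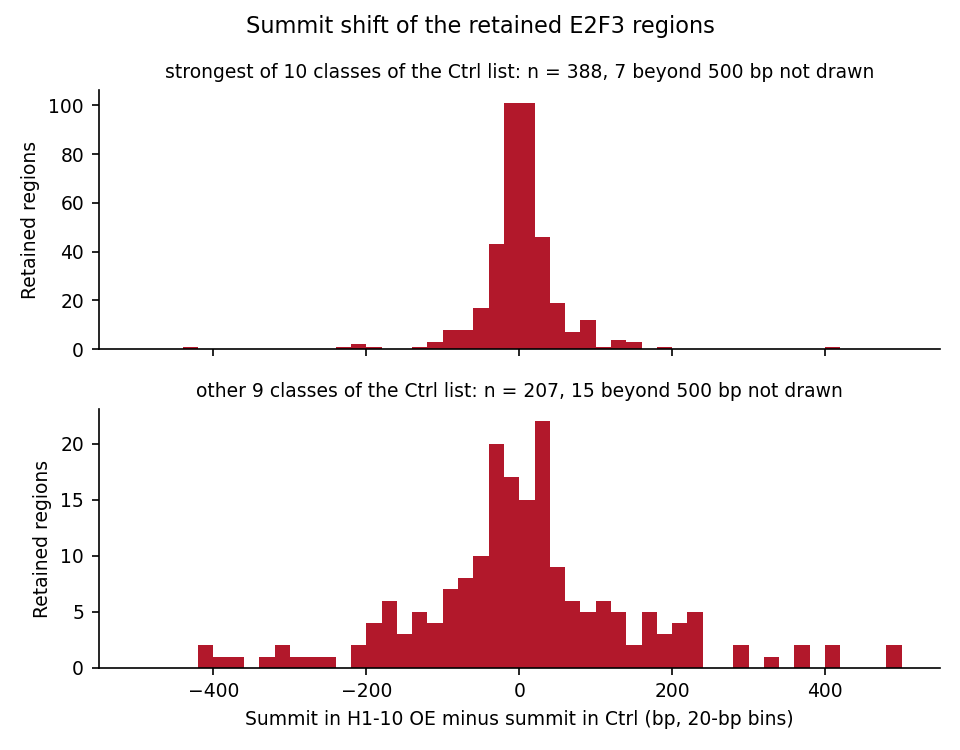
Summit position in H1-10 OE minus that in Ctrl (x axis, bp, in bins of 20 bp) against the number of retained regions (y axis), for the 388 members in the strongest class of the Ctrl list (top) and the 207 in the other classes (bottom). Both distributions centre on 0, 22 members beyond 500 bp are not drawn, and the lower one is broader, with medians of the absolute distance of 19 and 73 bp.

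A shift of more than 500 bp was seen in 22 members. The largest, 8162 bp, belonged to the 13250-bp region of chromosome 21. The next, 1468 bp, was on chromosome 6 at 58776969 to 58777822, where a partner of 3000 bp spanned the member, with folds of 4.25 in H1-10 OE and 1.55 in Ctrl. The 3 that followed lay in all 4 Pol2S5p lists. They were on chromosome 14 at 67825585 to 67827521 with 1445 bp, chromosome 6 at 153303175 to 153305216 with 1152 bp and chromosome 13 at 50698476 to 50700563 with 1146 bp. In these 3 the Ctrl region was wide, from 1937 to 2088 bp, and the partner was a region of 267 to 384 bp.

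Few regions lay close to the limit of the rule. The 3 smallest overlaps were 21, 52 and 56 bp, on chromosome 4 at 103711742 to 103712067, chromosome 13 at 63296009 to 63296445 and chromosome 5 at 124379507 to 124379747, with Ctrl folds of 3.94, 10.1 and 4.50. Just outside, the 3 smallest gaps were 42, 73 and 75 bp, on chromosome 7 at 116450900 to 116451184, chromosome 13 at 72409117 to 72409426 and chromosome 7 at 83652206 to 83652446, with Ctrl folds of 4.72, 6.47 and 2.98. Only 89 of the 22393 regions that were not retained lay within 1 kb of an H1-10 OE region.

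Pol2S5p was not used by the rule and was compared between the retained and the other Ctrl regions. Its lists held 40626 regions in H1-10 OE and 35493 in Ctrl, and 83067 in siE2F3 and 83650 in siCtrl. Of the members, 490 overlapped the Pol2S5p list of H1-10 OE (82.4%, 79.1 to 85.2%), against 64.6% of all Ctrl E2F3 regions. The list of Ctrl held 479 of them (80.5%, 77.1 to 83.5%), against 68.0% of all. The siE2F3 list held 460 (77.3%, 73.8 to 80.5%), against 67.8% of all, and the siCtrl list 476 (80.0%, 76.6 to 83.0%), against 70.6% of all. Relative to the regions that were not retained, members were 18.2 percentage points (14.9 to 21.1) more often in Pol2S5p of H1-10 OE, 12.8 (9.42 to 15.9) in Ctrl, 9.79 (6.21 to 13.0) in siE2F3 and 9.61 (6.16 to 12.7) in siCtrl. E2F3, siE2F3 and siCtrl lists share a folder label in their peak names that differs from that of the other Pol2S5p lists, so overlaps of E2F3 with the H1-10 OE and Ctrl lists of Pol2S5p cross it.

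Among Ctrl regions of like strength the picture was different. Compared within the 10 classes of the Ctrl list and weighted by the members in each, the difference was 0.378 points for Pol2S5p of H1-10 OE, -4.82 for Ctrl, -6.04 for siE2F3 and -5.03 for siCtrl. On this average, members were thus less often at Pol2S5p of Ctrl, siE2F3 and siCtrl, although the classes did not all have the same sign. With 50% reciprocal overlap as the rule, 176 members were left. The unweighted differences were then -2.15, -9.54, -16.2 and -13.9 points in the same order, the first with an interval that includes 0. This rule keeps mostly narrow Ctrl regions, with a median width of 567 bp against 942 bp for the 595 members. Wide and strong members pass to the other side, so these values are not a comparison at like strength.

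The strongest class and the other classes ran in opposite directions, though for Pol2S5p of Ctrl the interval of the strongest class included 0. Members and other regions of the strongest class were not of like strength. Retained were 92 of the 100 regions at ranks 1 to 100 and 55 of the 1299 at ranks 1001 to 2299. The differences in this class do not adjust for that. In the strongest class, members lay in Pol2S5p of H1-10 OE in 97.9% of cases (96.0 to 99.0%) and other regions in 93.8% (92.6 to 94.8%), a difference of 4.17 points (1.97 to 5.72). For siE2F3 the difference was 3.55 points (1.22 to 5.20) and for siCtrl 3.63 (1.63 to 5.01), while for Ctrl it was 0.41 (-1.80 to 1.86). In the other classes, 53.1% of 207 members (46.3 to 59.8%) lay in Pol2S5p of H1-10 OE and 61.4% (60.7 to 62.1%) of the other regions, a difference of -8.26 points (-15.1 to -1.54). It was -16.1 points (-22.9 to -9.33) for Ctrl, -25.4 (-31.9 to -18.6) for siE2F3 and -22.7 (-29.4 to -15.9) for siCtrl.

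**Figure D4:**
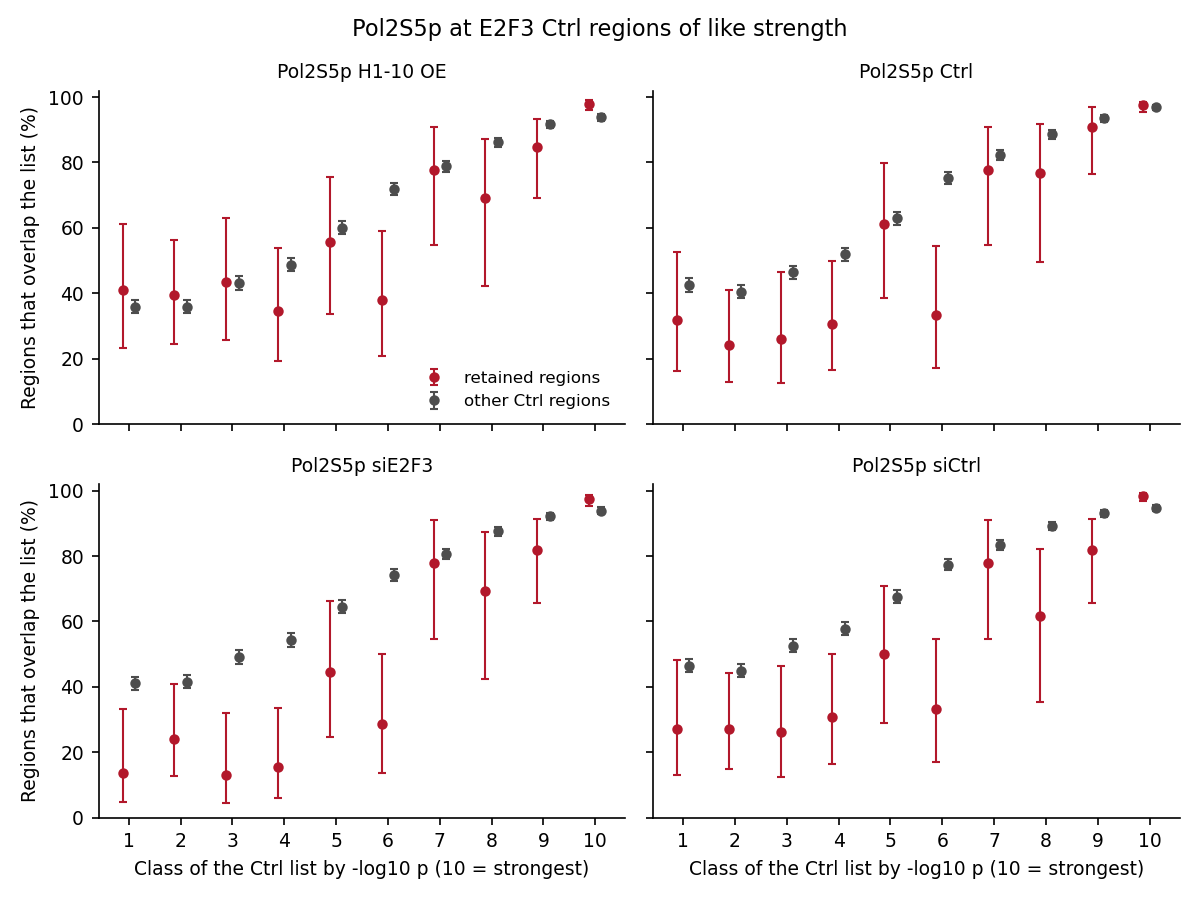
Share of regions that overlapped each Pol2S5p list (y axis, %) in 10 classes of the E2F3 Ctrl list by -log10 p (x axis, 10 is the strongest), for retained regions (red) and other Ctrl regions (grey), with 95% Wilson intervals. Shares tended to climb with strength in both sets, and in the siE2F3 and siCtrl panels the retained regions lay below the others in each of classes 1 to 9 and above them in class 10.

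The weakest members had a gap in 3 of the 4 lists. In the weakest 4 classes, 18 of 104 members (17.3%, 11.2 to 25.7%) lay in the siE2F3 list, against 46.6% of the 9091 other regions, and 29 (27.9%, 20.2 to 37.2%) lay in Pol2S5p of Ctrl, against 45.4%. Pol2S5p of H1-10 OE was found at 41 of these 104 members (39.4%, 30.6 to 49.0%) and at 41.0% of the other regions, a difference of -1.53 points (-10.4 to 8.13). In classes 5 to 9 that difference was -10.7 points (-20.3 to -2.36). Of the 3691 E2F3 regions found in H1-10 OE only, the same lists held 4.77% for siE2F3 and 21.7% for H1-10 OE.

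Where both sets lay at Pol2S5p, the polymerase regions of members were more often among the strongest. Within the strongest class of E2F3, the Pol2S5p region was among the strongest 10% of its own list at 52.6% of members (47.6 to 57.6%) and 42.9% of other regions (40.6 to 45.2%) in H1-10 OE. In Ctrl the shares were 48.1% for members and 39.2% for other regions, in siE2F3 82.0% and 71.0%, and in siCtrl 81.7% and 74.3%. The differences were 9.72 points (4.19 to 15.2) in H1-10 OE, 8.99 (3.52 to 14.5) in Ctrl, 11.1 (6.39 to 15.2) in siE2F3 and 7.34 (2.71 to 11.4) in siCtrl. The members were also much stronger than the other regions within this class of the E2F3 list. The strongest 500 Ctrl regions held 266 of its 388 members and 234 of its 1911 other regions. These differences do not adjust for that.

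E2F3 and Pol2S5p summits did not coincide. At members the median distance from the Ctrl E2F3 summit to the Pol2S5p summit was 162.5 bp (143 to 187) in H1-10 OE, 156 bp (139 to 176) in Ctrl, 185.5 bp (165 to 209) in siE2F3 and 181 bp (163 to 206) in siCtrl. The Pol2S5p regions at members had median widths of 1611, 1518, 2288.5 and 2283.5 bp in the same order of lists. Distances to Pol2S5p are not set against the 28 bp between the E2F3 summits of the 2 conditions, which the rule limits. Over all classes, regions that were not retained had shorter distances of 142, 127, 163 and 158 bp, each below the interval of the members. In the strongest class, members had 174.5 bp (153 to 192), 156.5 bp (139 to 177), 182.5 bp (160 to 210) and 192.5 bp (170 to 217). Other regions of that class had 162, 149, 185 and 176.5 bp, within these intervals.

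Grouped by all 4 lists, 441 members (74.1%, 70.5 to 77.5%) lay in every Pol2S5p list, against 56.5% of all Ctrl E2F3 regions. These members had a median fold of 4.58 in H1-10 OE and 45.6 in Ctrl, and 371 of them were in the strongest class of Ctrl. In the other 9 classes the sign was the opposite, with 33.8% of members and 52.7% of other regions in every list, a difference of -18.9 points (-25.0 to -12.2). A further 73 members (12.3%, 9.87 to 15.2%) lay in none, against 21.1% of all. They had a median fold of 5.93 in H1-10 OE and 6.21 in Ctrl, and 71 of them were below the strongest class. Within those 9 classes, 34.3% of members and 23.2% of other regions lay in none, a difference of 11.1 points (4.97 to 17.8).

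A small group had Pol2S5p in H1-10 OE and in neither Ctrl nor siE2F3. It held 30 members (5.04%, 3.55 to 7.11%), against 0.874% of all Ctrl E2F3 regions and 17.6% (16.4 to 18.8%) of the E2F3 regions found in H1-10 OE only. This pattern was picked after the values were seen. Below the strongest class it was found in 26 of 207 members (12.6%) and in 0.810% of other regions, a difference of 11.7 points (7.90 to 17.0). Of the 30, 9 also lay in the siCtrl list, while 21 lay in neither siRNA list. The median E2F3 fold of the 30 was 10.0 in H1-10 OE and 6.41 in Ctrl. Examples, also chosen after their values were seen, were chromosome 3 at 101808865 to 101809105 and chromosome 13 at 66988358 to 66988770. Their folds were 25.3 and 25.3 in H1-10 OE and 4.81 and 5.01 in Ctrl. The partner on chromosome 3, of 1148 bp, also overlapped the member at 101808103 to 101808484, which lay in no Pol2S5p list. The Pol2S5p region of the chromosome 3 example had a fold of 4.43 in H1-10 OE and ranked 30069. The group included the 3 low-fold regions of chromosomes 1 and 7 named above.

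Some members differed between the Pol2S5p lists of H1-10 OE and Ctrl. Pol2S5p was found in H1-10 OE and not in Ctrl at 37 members (6.22%), against 7.23% of all Ctrl E2F3 regions, and in Ctrl and not in H1-10 OE at 26 (4.37%), against 10.6% of all. Below the strongest class the first of these patterns was seen in 14.5% of members and 7.82% of other regions, a difference of 6.68 points (2.51 to 12.1) and opposite in sign to the pooled one. Of the 26, 20 (3.36%) had no Pol2S5p region in either siRNA list, against 6.99% of all. Polymerase folds at the 5 strongest of these members in Ctrl ran from 3.46 to 28.8. On chromosome 8 at 143858168 to 143859919, Pol2S5p had folds of 4.79 in H1-10 OE, 3.55 in siE2F3 and 4.65 in siCtrl and no region in Ctrl. On chromosome 9 at 140044089 to 140046315, folds were 10.8 in Ctrl and 4.12 in siCtrl, with no region in H1-10 OE or siE2F3. On chromosome X at 153041472 to 153043151, no region was listed in H1-10 OE, and folds were 3.46 in Ctrl, 28.8 in siE2F3 and 13.9 in siCtrl. Chromosome 12 at 54610389 to 54611914 had a Pol2S5p region in Ctrl alone, and chromosome 19 at 56014864 to 56015574 in H1-10 OE alone, with folds of 4.24 and 4.83.

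The 5 strongest members with no Pol2S5p region in any list were led by chromosome 2 at 206750193 to 206750736, with an E2F3 fold of 5.26 in H1-10 OE and 31.9 in Ctrl and summits 1 bp apart. The second was the wide region of chromosome 21, with folds of 8.87 in H1-10 OE and 16.0 in Ctrl. The others lay on chromosome 9 at 112237814 to 112238376, chromosome 10 at 78307046 to 78307609 and chromosome 1 at 180502642 to 180503129, with folds of 4.84, 4.84 and 7.94 in H1-10 OE and of 17.2, 15.0 and 13.9 in Ctrl.

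Pooled over all classes, Pol2S5p of siCtrl was absent from siE2F3 about as often at members as at the other Ctrl E2F3 regions. Of the 476 members in the siCtrl list, 18 (3.78%, 2.41 to 5.90%) had no siE2F3 region, against 5.03% of all Ctrl E2F3 regions in siCtrl. The difference from regions that were not retained was -1.28 points (-2.70 to 0.861), an interval that includes 0. In the strongest class, 4 of 382 members (1.05%, 0.408 to 2.66%) and 22 of 1812 other regions (1.21%) were absent. In the other classes, 14 of 94 members (14.9%, 9.08 to 23.5%) and 5.56% of 13950 other regions were, a difference of 9.33 points (3.51 to 17.9). Of the 299 E2F3 regions found in H1-10 OE only that lay in siCtrl, 49.5% (43.9 to 55.1%) were absent from siE2F3.

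H3K27me3 was rare at E2F3 regions and nearly absent from the members, in lists of 18395 regions in H1-10 OE and 2540 in Ctrl. Of the 3691 E2F3 regions found in H1-10 OE only, 0 overlapped the mark in H1-10 OE and 1 overlapped it in Ctrl. The H1-10 OE list of the mark overlapped 2 of 595 members (0.336%, 0.0922 to 1.22%), against 2.60% of all Ctrl E2F3 regions. The Ctrl list overlapped 0 of 595, which allows a share of up to 0.504%, against 0.883% of all. The 2 members were the low-fold regions of chromosome 1 at 121484411 and chromosome 7 at 61968721. Most members lay in the strongest class of Ctrl, and the mark was not compared among regions of like strength.

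The members were spread over 22 autosomes and chromosome X, with 470 windows of 1 Mb holding at least 1 and 371 of these holding just 1. Chromosome 6 held 53 members, 8.91% of them (6.87 to 11.5%), against 5.13% of the regions that were not retained, a difference of 3.78 points (1.72 to 6.35). Chromosome 7 held 44, 2.03 points more (0.162 to 4.43). The share was lower by 2.19 points on chromosome 16 (-3.09 to -0.688), by 2.47 on chromosome 19 (-3.97 to -0.402) and by 1.27 on chromosome 22 (-1.91 to -0.0192). The intervals for the other 18 of these 23 chromosomes included 0, and no adjustment was made for the number of chromosomes. With regions of -log10 q of at least 5, the intervals of chromosomes 7 (-0.0256 to 4.79), 19 (-3.85 to 0.394) and 22 (-1.71 to 0.649) included 0 too, while those of chromosomes 6 and 16 did not.

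Part of the excess on chromosome 6 lay in 2 neighbouring windows. From 26 to 28 Mb, 11 of 72 Ctrl regions were retained (15.3%, 8.75 to 25.3%), against 3.72% (2.76 to 4.99%) on the rest of the chromosome. All 11 lay in all 4 Pol2S5p lists, against 56.5% of all Ctrl E2F3 regions. Among strongest-class regions that were not retained the share was 92.0%. The folds of the 11 reached 31.8 in H1-10 OE (median 6.34) and 115 in Ctrl (median 26.8). Of the 7 Ctrl regions in these windows that belonged to the strongest class, 6 were retained. Between 31 and 32 Mb of chromosome 6, a further 5 of 36 Ctrl regions were retained. Windows were chosen after their values were seen.

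Seen from the H1-10 OE list, chromosomes differed far more. On chromosome 19, 29 of the 32 H1-10 OE regions were partners of a member (90.6%, 75.8 to 96.8%). The share was 63.6% (35.4 to 84.8%) of 11 on chromosome 22 and 55.2% (37.5 to 71.6%) of 29 on chromosome 20. On chromosome 13, 18 of 549 were (3.28%, 2.08 to 5.12%), and chromosomes 3, 4 and 5 had 7.22%, 6.91% and 7.72%. The Ctrl list held 1673 regions on chromosome 19 and 488 on chromosome 13, of which 1.73% and 3.69% were retained. The members of chromosome 19 were strong, with a median fold of 4.58 in H1-10 OE and 49.5 in Ctrl, and 26 of the 29 were in the strongest class. Those of chromosome 13 had medians of 5.54 in H1-10 OE and 6.93 in Ctrl, and 5 of 18 were in the strongest class.

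**Figure D5:**
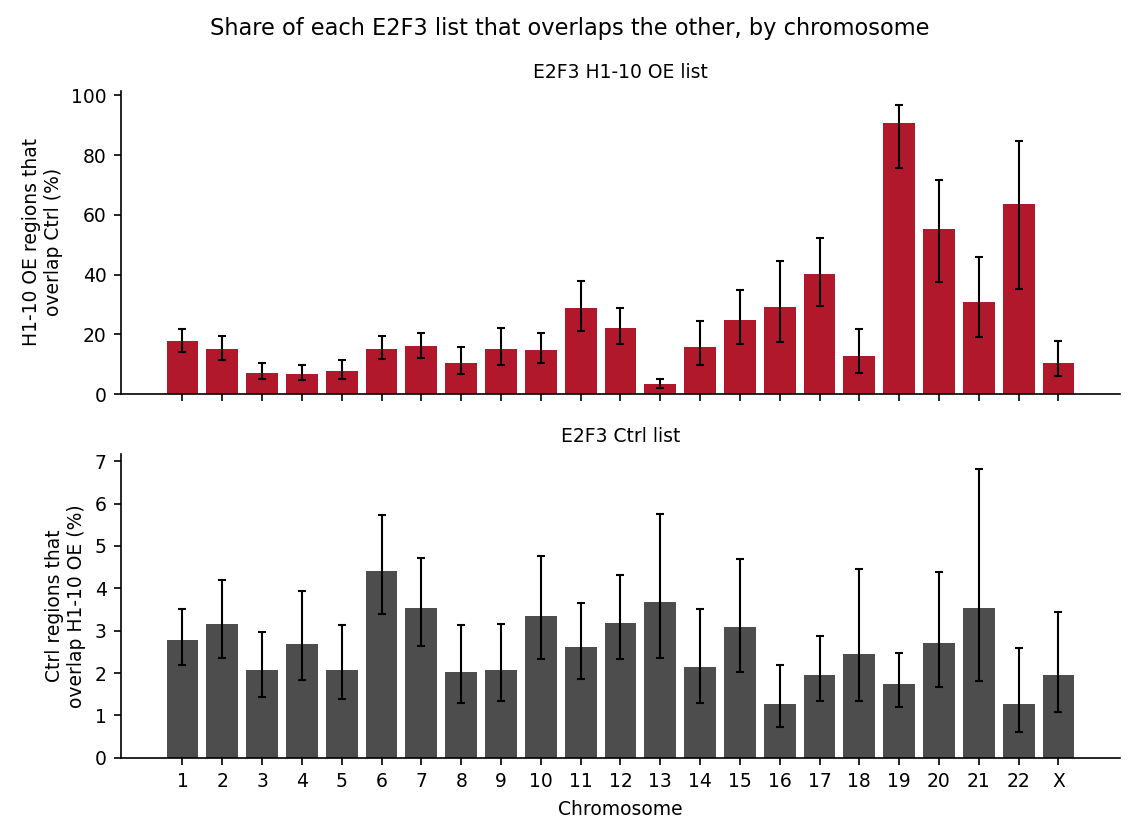
Share of the E2F3 regions of H1-10 OE that overlapped a Ctrl region (top, y axis, %) and of the E2F3 regions of Ctrl that overlapped an H1-10 OE region (bottom, y axis, %), by chromosome (x axis, without Y), with 95% Wilson intervals. The scales differ: the top panel runs from 3.28% on chromosome 13 to 90.6% on chromosome 19, and the bottom panel from 1.26% on chromosomes 16 and 22 to 4.41% on chromosome 6.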

How the data were processed

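The submitters' processing notes name Bowtie, fastp and FastQC and the genome build hg19. The sources used here give no version, peak caller or input pairing. Each deposited list holds the peaks of 1 library, with a peak score, a fold enrichment (the authors' ratio), -log10 p, -log10 q and a summit offset in bp. Lists of 8 samples were used and 14 samples were not analysed here. Read depth is unknown. Regions of a list did not overlap or touch each other.

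An overlap was at least 1 bp. The partner was the H1-10 OE region with the longest overlap. Strength was ranked by -log10 p in 10 classes of equal size, and a Pol2S5p region was taken by longest overlap. Intervals of medians are binomial order-statistic intervals of 95%. The zero limit is 3 counts. Coordinates are 1-based. Regions are not replicates.

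Regions were named by a rule: the 10 members highest in -log10 q in Ctrl, the 10 with the highest partners, 5 each without Pol2S5p, with Pol2S5p in H1-10 OE or Ctrl alone, and with the largest shift, and 3 at each side of the limit. Members, lists and comparisons were chosen with earlier results of these data known. The planned promoter comparison and gene lists needed an hg19 annotation and were not analysed here. The overlap code was tested on simulated data and against bedtools 2.31.1. Figures were drawn with matplotlib 3.10.9 and values computed in Python 3.11.15 with scipy 1.17.1, pandas 2.3.3 and numpy 2.4.6.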

Additional observations from a re-analysis of the deposited data

How the results depend on the processing

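No paired analysis was possible because each group has 1 library. The number of retained regions was 555 with the Ctrl summit inside an H1-10 OE region, 471 with -log10 q of at least 5, 418 with equal numbers of the strongest peaks and 587 with peaks within 1 kb merged, each within 1.5 times the 595 reported. With 50% reciprocal overlap it was 176.

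Differences in the share at Pol2S5p, members minus other Ctrl regions, are given for H1-10 OE, Ctrl, siE2F3 and siCtrl in that order. With 50% reciprocal overlap they were -2.15, -9.54, -16.2 and -13.9 points. Weighted within 10 classes of strength they were 0.378, -4.82, -6.04 and -5.03, and within 10 classes of fold, a setting chosen after seeing the data, 1.23, -3.73, -5.29 and -4.30. Also added later, the strongest class alone gave 4.17, 0.405, 3.55 and 3.63, and the other classes alone -8.26, -16.1, -25.4 and -22.7. Keeping regions with -log10 q of at least 5 in every list gave 21.2, 15.0, 13.5 and 13.0 points. The Ctrl summit rule and merging kept all 4 within their intervals.

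The median summit distance was 24 bp with -log10 q of at least 5, and 31 and 28 bp under 50% reciprocal overlap and with the partner of highest -log10 p. The median width was 442 bp for partners in H1-10 OE and 567 bp for members in Ctrl with 50% reciprocal overlap. With -log10 q of at least 5 it was 390 bp for partners and 1007 bp for members. Of 46 values for the share by chromosome under these settings, 42 stayed within the interval of the value reported. With -log10 q of at least 5, the intervals of chromosomes 7, 19 and 22 came to include 0 and that of chromosome 10 (0.0196 to 4.23) no longer did, and with 50% reciprocal overlap that of chromosome 22 did (-2.37 to 0.731). The other 4 values, under 50% reciprocal overlap, were -2.66 points on chromosome 11, -3.61 on 16, -5.04 on 19 and -0.418 on 21. The promoter comparison was not run, as an hg19 annotation was not used here. Read depth, single libraries and the length of the H1-10 OE list limit all values.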

Other observations

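Of the 100 strongest E2F3 regions of Ctrl, 8 were not found in H1-10 OE, and 7 of these 8 lay in all 4 Pol2S5p lists, as did 96 of the 100. They included chromosome 12 at 112450650 to 112452085 with a Ctrl fold of 65.1, chromosome 1 at 51433634 to 51435302 with 81.6 and chromosome 13 at 114238496 to 114239758 with 72.7. The exception, chromosome 1 at 156186196 to 156186678 with a fold of 24.1, had no Pol2S5p region in Ctrl and 1 in each of the other 3 lists. These regions were picked after their values were seen.

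The median distance from a member's summit to that of the nearest other member was 1.09 Mb, and 36 members lay within 10 kb of another. Among windows of 1 Mb with 3 or more members, the highest shares retained were 3 of 7 at 20 to 21 Mb of chromosome 6 and 3 of 12 at 26 to 27 Mb of chromosome 7. On chromosome 7, the members at 26221970 to 26225730 and 26239217 to 26242122 held 3 and 2 H1-10 OE regions each. The covered length of the members was 603 kb in Ctrl, their partners covered 266 kb in H1-10 OE, and 236 kb was shared.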
